A study of Homo sapiens with 8 samples.

Results

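The human mitochondrial genome encodes 37 genes, and all 37 were found among the 60612 genes of the expression table by gene names beginning with MT-. They comprise 13 mRNAs, 2 rRNAs and 22 tRNAs. RNA was sequenced from 2 human bladder cancer (BLCA) cell lines, 5637 and UM-UC3, both labelled wild type. Each line received melatonin, a natural hormone, at 0 (DMSO as vehicle), 1, 2 or 4 mM for 24 h, with 1 library per line and dose and so 8 libraries in all. The 5637 cells were grown in RPMI 1640 and the UM-UC3 cells in MEM, both with serum, so line and medium cannot be told apart. Levels are given in FPKM, the fragments per kilobase of gene, scaled to the mapped fragments of the library.

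Both strands of the mitochondrial genome are transcribed as long RNAs that are then cut into single genes. In most places a tRNA lies between the mRNAs or rRNAs, and the tRNA itself is the signal for cutting. RNase P, made of TRMT10C, HSD17B10 and the catalytic subunit PRORP, cuts at the tRNA 5′ end, and ELAC2 (RNase Z) cuts at the 3′ end. The mRNAs encode core subunits of the respiratory chain, namely 7 of complex I, 1 of complex III, 3 of complex IV and 2 of complex V (ATP synthase), and the rRNAs form the mitochondrial ribosome. All other subunits of these complexes come from nuclear genes. RNA polymerase POLRMT with the factors TFAM and TFB2M transcribes the genome.

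Of the tRNA genes that passed a dose test, 10 are shown as they stand in the reference genome, because tRNAs were the class that moved in opposite directions in the 2 lines. Each run is read 5′ to 3′ on the strand of the gene, with the tRNA gene in capitals and 12 flanking bases in lower case on either side (GRCh38 mitochondrial sequence; the 37 genes have the same positions in GENCODE v44). MT-TF (chrM:565-659) opens the major transcript, directly before the 12S rRNA gene.
MT-TF: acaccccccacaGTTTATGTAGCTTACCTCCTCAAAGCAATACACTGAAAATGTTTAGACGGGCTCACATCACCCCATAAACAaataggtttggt
MT-TM (chrM:4390-4481), MT-TK (chrM:8283-8376), MT-TG (chrM:9979-10070) and MT-TR (chrM:10393-10481), all on the plus strand, are those with the steepest rise in 5637.
MT-TM: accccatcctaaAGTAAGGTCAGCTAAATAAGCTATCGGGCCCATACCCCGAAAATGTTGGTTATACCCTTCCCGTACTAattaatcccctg
MT-TK: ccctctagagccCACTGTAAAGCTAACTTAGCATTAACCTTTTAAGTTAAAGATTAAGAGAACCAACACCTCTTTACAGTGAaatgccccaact
MT-TG: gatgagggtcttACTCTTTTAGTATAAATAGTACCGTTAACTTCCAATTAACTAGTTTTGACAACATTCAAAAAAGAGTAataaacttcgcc
MT-TR: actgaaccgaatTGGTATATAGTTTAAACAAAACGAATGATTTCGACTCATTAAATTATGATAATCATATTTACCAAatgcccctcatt
MT-TS1 (chrM:7434-7526) and MT-TE (chrM:14662-14754) lie on the minus strand, MT-TS1 directly past the end of MT-CO1 and MT-TE between MT-ND6 and the start of MT-CYB.
MT-TS1: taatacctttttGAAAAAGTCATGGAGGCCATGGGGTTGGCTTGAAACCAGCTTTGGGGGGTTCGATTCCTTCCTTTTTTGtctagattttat
MT-TE: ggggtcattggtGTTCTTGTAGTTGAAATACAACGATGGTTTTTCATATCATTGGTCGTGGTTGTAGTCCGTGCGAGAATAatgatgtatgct
MT-TH, MT-TS2 and MT-TL2 (chrM:12126-12348, plus strand) stand next to each other without a gap between MT-ND4 and MT-ND5. Here MT-TH and MT-TL2 are in capitals and MT-TS2 lies between them in lower case.
MT-TH, MT-TS2 and MT-TL2: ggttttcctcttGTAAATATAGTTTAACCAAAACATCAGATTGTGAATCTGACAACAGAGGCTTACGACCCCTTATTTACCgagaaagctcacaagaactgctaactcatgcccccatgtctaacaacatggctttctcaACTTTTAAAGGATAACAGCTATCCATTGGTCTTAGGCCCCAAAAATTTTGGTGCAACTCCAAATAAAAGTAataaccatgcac

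The libraries were made from poly(A)-selected RNA and read as pairs of 150 bases. Mature mitochondrial tRNAs, of 59 to 75 bases by gene length, are shorter than such a read, and the selection is not designed for them. Whether a tRNA value counts mature tRNA or uncut RNA that spans the tRNA gene was not measured. FPKM values of genes this short are also not comparable with those of long genes, so each tRNA is compared only with itself across libraries or given as a percentage of a neighbour. The library kit keeps the strand, but no source used here says whether the counting used it. Some genes share part of their bases, on opposite strands (MT-TI and MT-TQ, for example) or on the same strand (MT-ATP8 with MT-ATP6, MT-ND4L with MT-ND4). Reads on shared bases may count for both genes, so the values of such a pair are not fully separate.

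The FPKM values of a library summed to between 332961 and 395621, and the number of reads behind them is unknown. Of 17 epithelial and urothelial markers, 12 had a mean of at least 1 FPKM and all 12 were lower in UM-UC3 (limma, adjusted p under 0.05). EPCAM, a defining epithelial gene, was at 79.1 to 119 FPKM in 5637 and at 0.0286 to 0.165 FPKM in UM-UC3. The keratin genes KRT8 and KRT18 stayed well above 0 in UM-UC3. KRT8 was at 278 to 606 FPKM in 5637 and 48.0 to 55.5 FPKM in UM-UC3, and KRT18 at 112 to 322 and 43.6 to 149 FPKM. The uroplakin genes were at or near 0 in both lines. Of 8 fibroblast markers 3 reached a mean of 1 FPKM, 2 of them higher and 1 lower in UM-UC3 (limma, adjusted p under 0.05). None of 8 endothelial markers reached a mean of 1 FPKM, nor did 10 of 11 leukocyte markers, the exception being the lysosomal gene CD68. The summed FPKM of the epithelial markers went from 3687 in DMSO to 997 at 4 mM in 5637 and from 214 to 105 in UM-UC3. Their part in the mitochondrial values was not tested. In bulk RNA, a change in the number of cells of a type and a change in RNA per cell cannot be told apart.

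Dose effects are given as the fitted log2 change of FPKM + 1 from 0 to 4 mM, from a linear fit in dose over the 12649 genes with a mean of at least 1 FPKM (limma, Benjamini-Hochberg adjustment over all of them). All 37 mitochondrial genes were above that minimum. With 1 library per dose, the error comes from the scatter of the libraries about the line, and whether the libraries came from separate cultures is not stated. A gene is said to have risen or fallen where its adjusted p was under 0.05. Over both lines together 24.9% of all tested genes passed that test, 12.1% rising and 12.8% falling, and the median change of all genes was -0.01. The slopes of the single lines came from 1 fit over all 8 libraries with a slope per line. Both lines share its estimate of error, so the error of a slope in 1 line includes the scatter of the other. For the 5637 slope 43.3% passed (23.0% rising, 20.4% falling, median 0.05), and for the UM-UC3 slope 29.2% passed (12.5% rising, 16.7% falling, median -0.04).

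Among the 13 mRNAs, MT-CO1, the catalytic subunit of complex IV, rose with melatonin over both lines, and the other 12 did not pass the test. Of all 13, 10 had a positive slope, and the median was 0.37. In UM-UC3 cells MT-CO1, MT-CO2 and MT-ND4 rose, with 2.29, 2.08 and 2.08 times their DMSO levels at 4 mM. In 5637 cells no mRNA passed (0 of 13, with 2 at an unadjusted p under 0.05). The shares of mRNAs that passed, 1 of 13 over both lines, 3 of 13 in UM-UC3 and 0 of 13 in 5637, were not above the corresponding shares of all tested genes, except that all 3 in UM-UC3 rose, where 12.5% of all genes did.

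Of the 3 mRNAs that rose in UM-UC3, 2 belong to complex IV. MT-CO1 stood at 5777, 6081, 7774 and 8659 FPKM at 0, 1, 2 and 4 mM in 5637 and at 6236, 6973, 12044 and 14253 FPKM in UM-UC3. It was higher at each higher dose in both lines, and the 2 libraries of UM-UC3 at 2 and 4 mM were above every 5637 library. The change was 0.95 ± 0.23 (SE), adjusted p = 0.0179 over both lines, and 1.28 ± 0.28 (SE), adjusted p = 0.00854 in UM-UC3. In 5637 it was 0.62 ± 0.28 (SE), adjusted p = 0.0956, short of the threshold. MT-CO2, which holds the first copper centre for electrons from cytochrome c, was at 3375, 3889, 3807 and 3459 FPKM in 5637 and 3043, 2721, 5203 and 6321 FPKM in UM-UC3. Its 5637 libraries had no order by dose, and it rose in UM-UC3 (1.23 ± 0.30 (SE), adjusted p = 0.014). The difference between the 2 slopes was 1.24 ± 0.42 (SE), adjusted p = 0.0553, which does not pass. MT-CO3, the third core subunit, was at 2309, 2452, 2989 and 3325 FPKM in 5637, upward at each dose, and at 1828, 1764, 2899.8 and 2099 FPKM in UM-UC3, highest at 2 mM, and it passed in neither line.

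Complex I, the NADH dehydrogenase, has 7 mitochondrial subunits, and their dose slopes did not share a sign in either line. From 0 to 1 mM all 7 went up in 5637 and down in UM-UC3, where all 7 then went up to 2 mM. These steps were not particular to complex I. All other mitochondrial mRNAs made them too, except that MT-CO1 went up from 0 to 1 mM in UM-UC3. The mitochondrial mRNAs together made up 10.73% of the summed FPKM of the 5637 library at 0 mM and 12.97% at 1 mM. In UM-UC3 they made up 9.974, 8.796 and 15.41% at 0, 1 and 2 mM. These shares were not tested. MT-ND4 was at 3226, 3709, 4788 and 4353 FPKM in 5637 and at 3006, 2767, 5621 and 6249 FPKM in UM-UC3, where it rose (1.23 ± 0.33 (SE), adjusted p = 0.0207). MT-ND4L, whose last bases are the first of MT-ND4, was at 7868, 9938, 10087 and 8324 and 7709, 5654, 12608 and 12650.2 FPKM, and its slope in UM-UC3 was 0.97 ± 0.39 (SE), adjusted p = 0.0886. Both genes were higher at 2 than at 1 mM in UM-UC3, as were all other mitochondrial mRNAs and both rRNAs. Neither MT-ND4 nor MT-ND4L went steadily with dose in 5637.

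MT-ND2, a subunit of the proton-pumping arm, was the one mRNA whose slopes differed between the lines. It stood at 1946, 2435, 2303 and 3262 FPKM in 5637 and at 1521, 897, 1289 and 793 FPKM in UM-UC3. Every 5637 library was above every UM-UC3 library, and the gap was widest at 4 mM. The UM-UC3 slope minus the 5637 slope was -1.42 ± 0.44 (SE), adjusted p = 0.0405, while 25.7% of all genes passed this test of the difference of slopes, 10.4% with the higher slope in UM-UC3 and 15.3% with the lower, at a median of -0.11. The difference of MT-ND2 did not pass without any 1 of 5 libraries (5637 at 0, 1 or 4 mM, UM-UC3 at 0 or 4 mM), with adjusted p between 0.0584 and 0.445, nor with trimmed mean scaling of the libraries (0.0742).

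The other 4 subunits of complex I passed in no dose test. MT-ND1 was at 2015, 2289, 2145 and 2834 FPKM in 5637 and 1435, 1234, 1779.6 and 1185 FPKM in UM-UC3, again with no overlap between the lines. MT-ND3 was at 513, 729, 588 and 600.1 and 341, 303, 517 and 435 FPKM. Neither gene went steadily with dose in either line. MT-ND5, near the end of the major transcript, was at 1324, 1635, 1666 and 1027 FPKM in 5637 and at 1620.0, 1432, 2304 and 988 FPKM in UM-UC3, lowest at 4 mM in both. MT-ND6, the only mRNA on the minus strand, was at 408, 558, 408 and 309 FPKM in 5637 and at 380.2, 342, 510.0 and 193 FPKM in UM-UC3, also lowest at 4 mM in both, with a change over both lines of -0.73 ± 0.32 (SE), adjusted p = 0.118. The ratio of MT-ND5 to MT-ND4 went from 0.410 to 0.236 in 5637 and from 0.539 to 0.158 in UM-UC3 between DMSO and 4 mM.

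MT-CYB, the cytochrome b of complex III, was at 1135, 1446, 1939 and 2143 FPKM in 5637, higher at each dose (0.91 ± 0.40 (SE), adjusted p = 0.0919), and at 1663, 1427, 2826 and 1550.3 FPKM in UM-UC3 with a single high library at 2 mM. Of the ATP synthase genes, MT-ATP6, part of the proton channel, was at 3073, 3709, 3961 and 4196 FPKM in 5637 and 2871, 2414, 3734 and 2356 FPKM in UM-UC3, and MT-ATP8 at 3798, 4548, 4748 and 5569 and 2931, 2833, 4469 and 3217 FPKM. Both went up at each dose in 5637 and peaked at 2 mM in UM-UC3, without passing the test. In 5637, 5 of the 13 mRNAs were higher at each higher dose (21.6% of all tested genes were), and in UM-UC3 only MT-CO1 was (14.3%). In UM-UC3, 8 of the 13 mRNAs were highest at 2 mM and 7 were lowest at 1 mM.

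**Figure D1:**
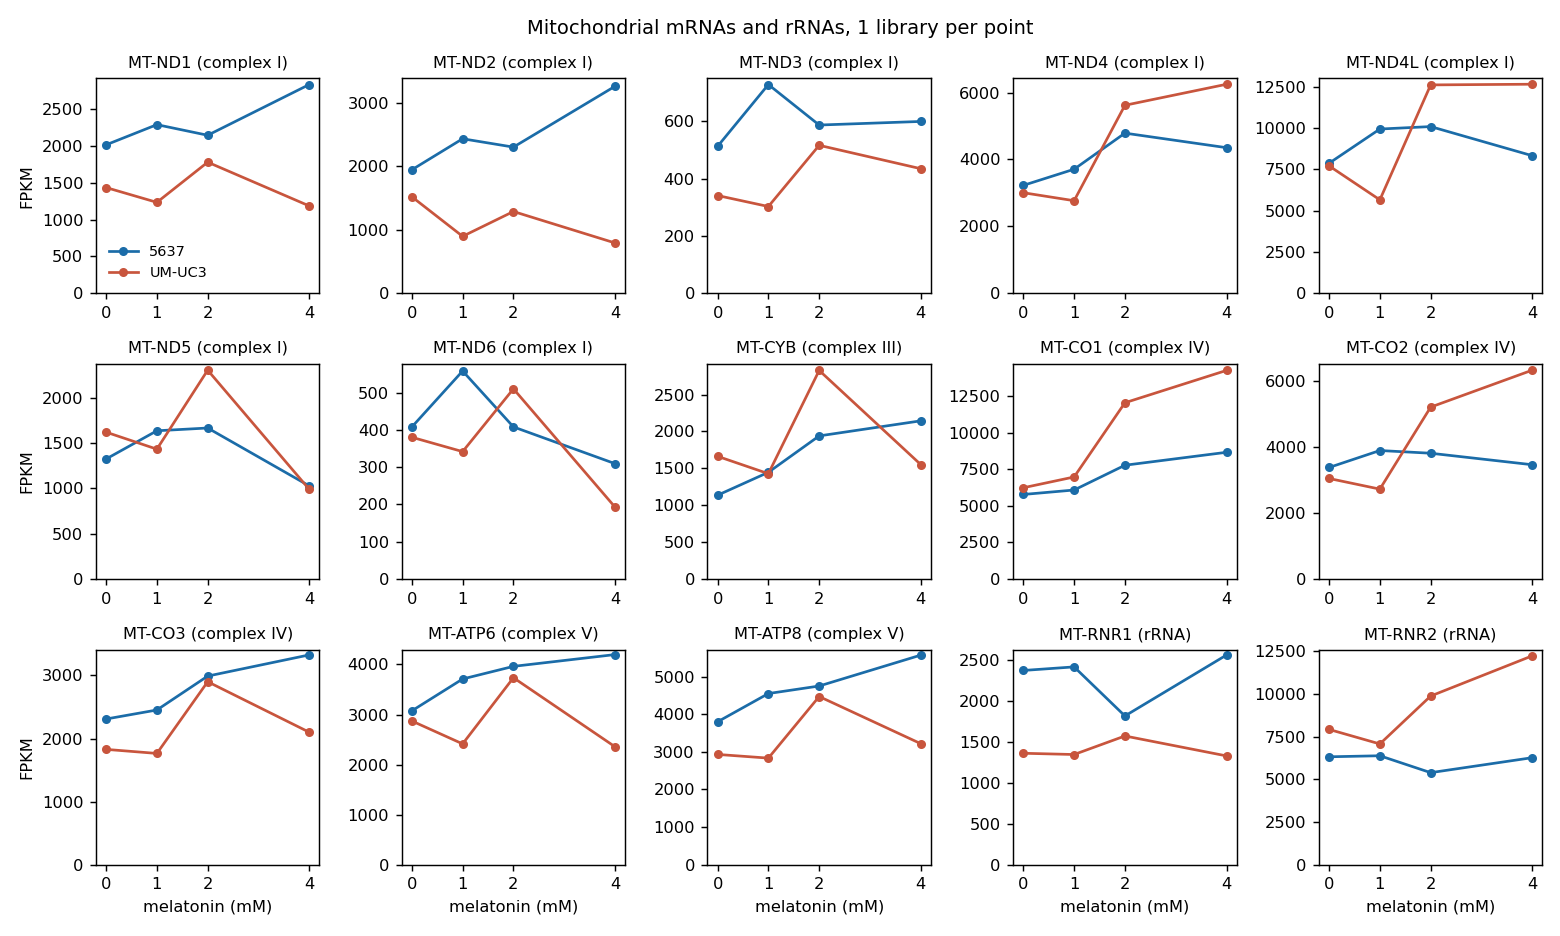
FPKM (vertical axis, from 0) of the 13 mitochondrial mRNAs and 2 rRNAs against melatonin in mM (horizontal axis), with 1 library per point for 5637 (blue) and UM-UC3 (red). MT-CO1 goes up at each dose in both lines, while 8 of the 13 mRNAs peak at 2 mM in UM-UC3, a count not made over all genes.

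The calls for mRNAs rested on the end doses. The call for MT-CO1 over both lines was lost when the UM-UC3 DMSO library was left out (adjusted p = 0.0728) or without both 4 mM libraries (0.102). MT-CO1, MT-CO2 and MT-ND4 in UM-UC3 were all lost without the UM-UC3 library at 0 mM (0.0618 to 0.0995) or at 4 mM (0.136 to 0.267). Over both lines, the mRNAs called numbered 3 when 5637 at 4 mM was left out, 2 without UM-UC3 at 2 mM and 4 without UM-UC3 at 4 mM, and in 5637 it was 4 without UM-UC3 at 2 mM and 1 without UM-UC3 at 4 mM.

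As a ratio of 4 mM to DMSO, the make-up of the mRNA pool, that is each complex's part of the summed FPKM of the 13 mRNAs, moved most for complexes IV and V in UM-UC3 and for complex III. Complex IV took 31.2, 28.6, 30.9 and 32.1% of the pool at 0, 1, 2 and 4 mM in 5637 and 32.1, 37.2, 36.1 and 43.4% in UM-UC3. Complex V took 18.7, 19.0, 18.5 and 20.3% in 5637 and 16.8, 17.1, 14.7 and 10.7% in UM-UC3. Complex III took 3.09, 3.33, 4.11 and 4.46% in 5637 and 4.81, 4.64, 5.06 and 2.96% in UM-UC3. Complex I took 47.1, 49.0, 46.6 and 43.1% in 5637 and 46.3, 41.1, 44.1 and 43.0% in UM-UC3. The ratio of MT-CO1 to MT-ND2 went from 4.10 through 7.77 and 9.35 to 18.0 in UM-UC3, against 2.97, 2.50, 3.38 and 2.65 in 5637. These shares have no replicate and were not tested. They also add FPKM values of short and long genes, which are not comparable. MT-ND4L, of 297 bases, alone took 17.3 to 24.2% of the pool, and MT-ATP8, of 207 bases, 6.15 to 11.6%.

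Neither rRNA passed the dose test in either line or over both. The 12S rRNA MT-RNR1 was at 2367, 2411, 1813 and 2556 FPKM in 5637 and at 1359, 1343, 1569 and 1326 FPKM in UM-UC3. The 16S rRNA MT-RNR2 was at 6327, 6388, 5398 and 6276 FPKM in 5637 and at 7931, 7079.8, 9887 and 12244 FPKM in UM-UC3, with a slope of 0.74 ± 0.26 (SE), adjusted p = 0.0607 in UM-UC3. Without the UM-UC3 library at 2 mM that slope passed (adjusted p = 0.0417). No rRNA reached an unadjusted p under 0.05 in 5637 or over both lines. The 2 rRNAs stood in opposite order in the 2 lines: MT-RNR1 was lower in all UM-UC3 libraries and MT-RNR2 higher. The 16S to 12S ratio was therefore 2.46 to 2.98 in 5637 and went from 5.84 in DMSO to 9.23 at 4 mM in UM-UC3. Both rRNAs carry short A tails at most, so how many of their molecules the poly(A) selection kept was not measured.

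Most calls were in tRNA genes, and they went in different directions in the 2 lines. Of the 22, 8 rose and 1 fell in 5637, whereas 1 rose and 9 fell in UM-UC3. The 9 calls in 5637 are a share close to that of all genes there (43.3%), and the 10 in UM-UC3 a larger one (29.2%). The median slope of the 22 was 0.55 in 5637 and -0.66 in UM-UC3, beside 0.05 and -0.04 for all tested genes. Only MT-TF and MT-TS1 passed in the same direction in both lines. Over both lines MT-TS1 (1.29 ± 0.20 (SE), adjusted p = 0.00334), MT-TR (2.24 ± 0.46 (SE), adjusted p = 0.00934) and MT-TK (1.74 ± 0.51 (SE), adjusted p = 0.0357) rose and MT-TF fell. MT-TK did not pass over both lines without any 1 of the 4 libraries of 5637 or without UM-UC3 at 1 or 2 mM (adjusted p 0.0587 to 0.186). At 4 mM 20 of the 22 were above DMSO in 5637 and 5 of the 22 in UM-UC3, and 19 of the 22 had their highest 5637 value at 4 mM. These last counts were not made over all genes.

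**Figure D2:**
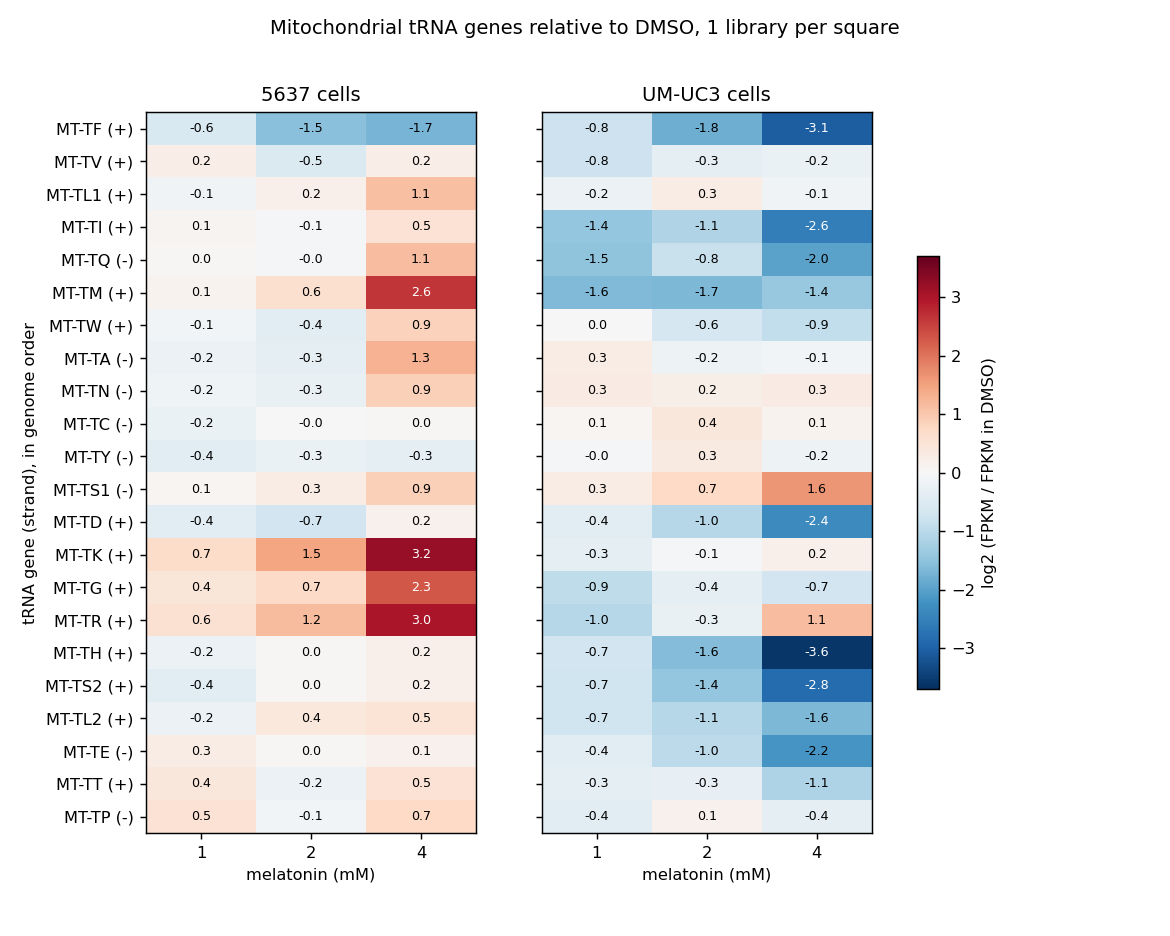
Log2 ratio of FPKM to the DMSO library of the same line for the 22 mitochondrial tRNA genes in genome order (rows, with strand) at 1, 2 and 4 mM (columns), with 1 library per square, red above and blue below DMSO. MT-TF is below DMSO at every dose in both lines, MT-TK and MT-TR reach 9.39 and 8.11 times DMSO in 5637 at 4 mM, and MT-TH is 12.1-fold lower in UM-UC3.

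MT-TF, the tRNA for phenylalanine, fell in both lines. It stood at 206, 139, 71.0 and 62.4 FPKM at 0, 1, 2 and 4 mM in 5637 and at 153, 89.3, 43.7 and 18.3 FPKM in UM-UC3, lower at each higher dose in both. Between DMSO and 4 mM it was 3.29-fold lower in 5637 and 8.35-fold lower in UM-UC3. The change over both lines was -2.38 ± 0.31 (SE), adjusted p = 0.00224. MT-RNR1, the gene that follows it directly, did not go down with it, so MT-TF went from 8.68 to 2.44% of MT-RNR1 in 5637 and from 11.2 to 1.38% in UM-UC3. The fall in 5637 passed under all 16 alternatives, and that in UM-UC3 under 15 of 16, the exception being the fit without the UM-UC3 library at 4 mM (adjusted p = 0.0622).

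MT-TS1, a tRNA for serine, rose in both. It was at 169, 179, 204 and 314 FPKM in 5637 and at 196, 236, 328 and 603 FPKM in UM-UC3, higher at each dose. Without the 4 mM library of a line the slope in that line no longer passed (adjusted p = 0.426 in 5637 and 0.122 in UM-UC3). Its gene lies, on the other strand, directly after the last base of MT-CO1, which went up at each dose in the same libraries, and as a percentage of MT-CO1 it was 2.92, 2.94, 2.62 and 3.62% in 5637 and 3.14, 3.39, 2.73 and 4.23% in UM-UC3.

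In 5637 the steepest rise was in 4 tRNA genes of the plus strand. MT-TK, for lysine, went from 19.5 through 31.1 and 53.8 to 183 FPKM (3.20 ± 0.21 (SE), adjusted p = 2.57e-05), 9.39 times its DMSO level. MT-TR, for arginine, was at 32.6, 48.4, 73.1 and 265 FPKM (3.01 ± 0.58 (SE), adjusted p = 0.00535). MT-TM, for methionine, was at 80.4, 87.4, 122 and 504 FPKM (2.74 ± 0.67 (SE), adjusted p = 0.0164), and MT-TG, for glycine, at 4.98, 6.73, 8.14 and 24.7 FPKM (2.10 ± 0.32 (SE), adjusted p = 0.000829). All 4 were higher at each higher dose in 5637, with the largest step between 2 and 4 mM. In UM-UC3 the same genes were at 53.8, 43.0, 51.6 and 61.1 FPKM for MT-TK, 95.2, 46.2, 78.5 and 209 FPKM for MT-TR, 99.3, 32.0, 31.4 and 37.7 FPKM for MT-TM and 6.51, 3.38, 5.06 and 3.94 FPKM for MT-TG, and none of the 4 passed there.

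Each of these tRNA values was also higher at 4 mM relative to a neighbouring mRNA. MT-TK was 0.515% of MT-ATP8 in 5637 DMSO cells and 3.29% at 4 mM. MT-TM went from 4.13 to 15.4% of MT-ND2, MT-TG from 0.971 to 4.11% of MT-ND3, and MT-TR, on the other side of MT-ND3, from 6.36 to 44.1% of it. MT-TR was also high beside MT-ND3 in UM-UC3, at 27.9% in DMSO, 15.2% at both 1 and 2 mM and 47.9% at 4 mM.

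The other rises in 5637 were smaller. MT-TL1, for leucine, was at 499, 457, 571 and 1079 FPKM (1.21 ± 0.29 (SE), adjusted p = 0.00803), MT-TA, for alanine, at 8.41, 7.26, 6.65 and 20.5 FPKM (1.26 ± 0.39 (SE), adjusted p = 0.0254) and MT-TN, for asparagine, at 5.24, 4.67, 4.35 and 9.69 FPKM (0.82 ± 0.29 (SE), adjusted p = 0.0411). In these 3 genes the 4 mM library was the highest, and MT-TA and MT-TN were lower at each step from 0 to 2 mM. Without the 5637 library at 4 mM, only MT-TF and MT-TK of the 9 called in 5637 still passed, the other 7 had adjusted p between 0.261 and 0.718, and the slopes of MT-TA and MT-TN turned negative (-0.60 and -0.44). Without the 5637 library at 1 mM MT-TA (0.056) and MT-TN (0.0878) did not pass, and MT-TN also did not without any 1 of the UM-UC3 libraries (0.0575 to 0.06) or with trimmed mean scaling (0.0611).

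In UM-UC3 the whole block between MT-ND4 and MT-ND5 fell. MT-TH, for histidine, was at 16.6, 10.1, 5.50 and 1.37 FPKM, 12.1-fold lower at 4 mM (-2.91 ± 0.20 (SE), adjusted p = 7.78e-05). MT-TS2, for serine, was at 9.98, 5.98, 3.73 and 1.39 FPKM (-2.18 ± 0.24 (SE), adjusted p = 0.000529) and MT-TL2, for leucine, at 5.98, 3.62, 2.86 and 1.91 FPKM (-1.19 ± 0.25 (SE), adjusted p = 0.00723). All 3 were lower at each higher dose, and at 4 mM they were between 1.37 and 1.91 FPKM, where the added 1 makes the fitted change smaller than the plain ratio. In 5637 MT-TH was at 9.91, 8.56, 10.2 and 11.3 FPKM, MT-TS2 at 6.95 to 10.6 FPKM and MT-TL2 at 5.92 to 9.69 FPKM, and none of the 3 passed. MT-ND4, which precedes the block, rose in the same UM-UC3 libraries, so MT-TH went from 0.552 to 0.0219% of it.

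A further 5 tRNA genes besides MT-TF fell in UM-UC3. MT-TE, for glutamate, was at 125, 96.0, 64.0 and 27.5 FPKM (-2.19 ± 0.19 (SE), adjusted p = 0.000276) and MT-TD, for aspartate, at 42.7, 32.6, 20.7 and 8.33 FPKM (-2.28 ± 0.32 (SE), adjusted p = 0.00134). Both went down at each dose there, while MT-TE in 5637 stayed between 135 and 163 FPKM and MT-TD between 13.4 and 24.3. MT-TI, for isoleucine, was at 28.2, 10.5, 13.1 and 4.79 FPKM (-2.06 ± 0.35 (SE), adjusted p = 0.00308), MT-TQ, for glutamine, at 25.6, 9.16, 14.5 and 6.49 FPKM (-1.50 ± 0.47 (SE), adjusted p = 0.043) and MT-TT, for threonine, at 47.3, 37.5, 38.2 and 21.4 FPKM (-1.06 ± 0.29 (SE), adjusted p = 0.0207). MT-TI and MT-TQ overlap on opposite strands and had their high library in DMSO and their low one at 4 mM. In all, 6 of the 22 tRNAs were lower at each higher dose in UM-UC3 (16.7% of all tested genes were) and 1 in 5637 (15.6%).

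The calls in UM-UC3 depended on its end doses too. Without the UM-UC3 library at 4 mM only MT-TH of the 10 still passed, and the other 9 had adjusted p between 0.0622 and 0.697. Without its DMSO library 4 were lost (MT-TI, MT-TQ, MT-TL2 and MT-TT, 0.052 to 0.35), and without UM-UC3 at 2 mM or 5637 at 1 mM MT-TQ was (0.0507 and 0.0589), as it was with trimmed mean scaling of the libraries (0.0791).

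**Figure D3:**
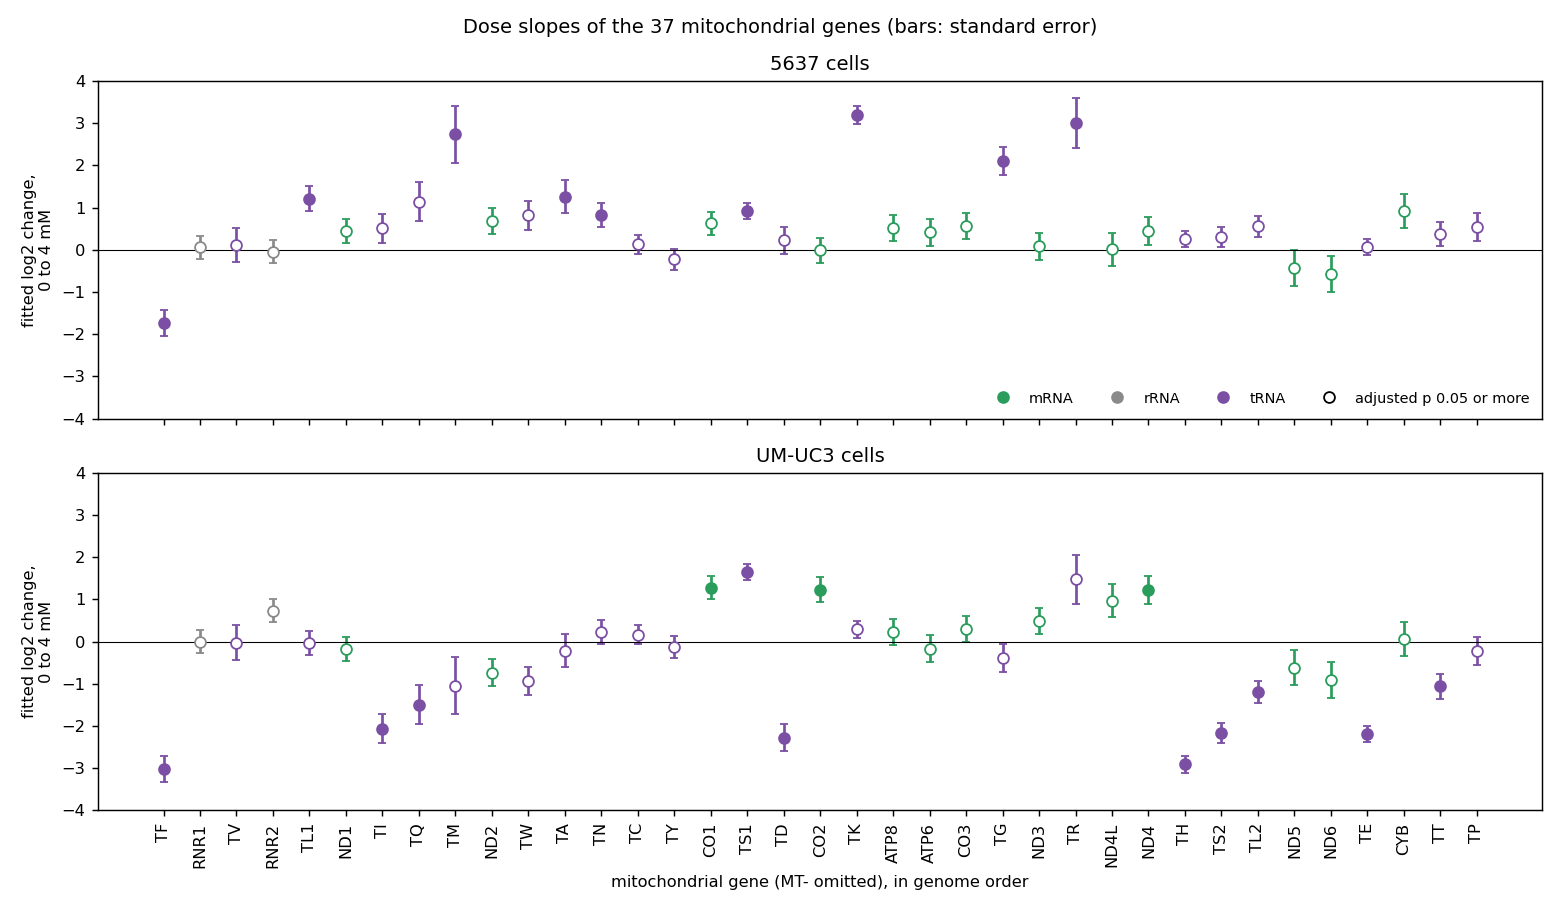
Fitted log2 change of FPKM + 1 from 0 to 4 mM (points) with its standard error (bars) for the 37 mitochondrial genes in genome order, 5637 above and UM-UC3 below, filled where the adjusted p is under 0.05. In 5637 the filled points above 2 are the tRNAs MT-TM, MT-TK, MT-TG and MT-TR, and in UM-UC3 those below -2 are MT-TF, MT-TI, MT-TD, MT-TH, MT-TS2 and MT-TE.

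The remaining tRNA genes passed no dose test within a line. MT-TC, for cysteine, was at 75.7, 64.5, 75.1 and 78.4 FPKM in 5637 and 261, 271, 347 and 285 FPKM in UM-UC3. MT-TY, for tyrosine, was at 313, 238, 261 and 249.6 FPKM in 5637 and 830.4, 806, 1039 and 732 FPKM in UM-UC3. These neighbours on the minus strand did not overlap between the lines at any dose. MT-TV, for valine, between the rRNA genes, was at 228 to 395 FPKM in 5637 and 93.3 to 159 in UM-UC3, and MT-TP, for proline, at 16.9 to 30.5 and 21.2 to 30.7 FPKM. MT-TW, for tryptophan, was at 10.9, 10.2, 8.26 and 19.7 FPKM in 5637 and 14.98, 15.1, 9.72 and 7.97 FPKM in UM-UC3.

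By strand, 5 of the 14 plus-strand tRNAs rose and 1 fell in 5637, and 7 fell in UM-UC3. Strand here and below is that of the gene. Whether the counting used it is not stated, so a value may include RNA of the other strand. Beside these counts, 23.0% of all genes rose and 20.4% fell in 5637, and 12.5% rose and 16.7% fell in UM-UC3. Of the 8 on the minus strand, 3 rose in 5637 (MT-TA, MT-TN and MT-TS1), and in UM-UC3 1 rose (MT-TS1) and 2 fell (MT-TQ and MT-TE). The median slope of the plus-strand tRNAs was 0.53 in 5637 and -1.06 in UM-UC3, and that of the minus-strand tRNAs 0.68 and -0.18.

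The slopes differed between the lines for 12 of the 22 tRNA genes, all 12 with the lower slope in UM-UC3. Of all genes 25.7% differed, 10.4% with the higher slope in UM-UC3 and 15.3% with the lower. The median difference over the 22 was -1.64, beside -0.11 for all genes. MT-TH differed most clearly (-3.16 ± 0.28 (SE), adjusted p = 0.000463), followed by MT-TK (-2.91 ± 0.30 (SE), adjusted p = 0.000855) and MT-TE (-2.25 ± 0.28 (SE), adjusted p = 0.00128). The others were MT-TS2, MT-TD, MT-TG, MT-TI, MT-TL2, MT-TQ, MT-TW, MT-TT and MT-TM, from -1.43 to -3.78. For MT-TH, MT-TE, MT-TS2, MT-TL2, MT-TD, MT-TI, MT-TQ and MT-TT the difference came with a fall in UM-UC3, for MT-TK, MT-TG and MT-TM with a rise in 5637, and MT-TW passed in neither line alone. Of the 12, 8 were lost when 5637 at 4 mM was left out (adjusted p 0.0907 to 0.806), 10 without UM-UC3 at 4 mM (0.0654 to 0.486), and none passed without both (0.0529 to 0.917). MT-TQ (0.0809), MT-TW (0.0679) and MT-TT (0.0798) did not pass without the UM-UC3 DMSO library, and MT-TT not without the 5637 one (0.0777). When libraries were scaled to an equal sum over nuclear genes, the median difference of all genes moved from -0.11 to -0.28, and all 12 still passed.

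The level over all doses differed between the lines for 18 of the 37 genes, where 66.6% of all tested genes differed (30% higher in UM-UC3 and 36.7% lower, median -0.10). Of the mRNAs, 4 were lower in UM-UC3, namely MT-ND2 (-1.17 ± 0.25 (SE), adjusted p = 0.00232), MT-ND1 (-0.73 ± 0.18 (SE), adjusted p = 0.00504), MT-ND3 (-0.62 ± 0.18 (SE), adjusted p = 0.0133) and MT-ATP8 (-0.48 ± 0.17 (SE), adjusted p = 0.0306). The first 3 are complex I subunits. The call for MT-ATP8 was lost without any 1 of 6 libraries (adjusted p 0.056 to 0.0869), and without UM-UC3 at 2 mM 7 mRNAs differed. MT-RNR1 was lower (-0.70 ± 0.15 (SE), adjusted p = 0.00274) and MT-RNR2 higher in UM-UC3 (0.58 ± 0.17 (SE), adjusted p = 0.0148), the latter not without 5637 at 2 mM (0.0531).

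Of the tRNAs, 4 were higher in UM-UC3, and all 4 lie on the minus strand, namely MT-TC (1.97 ± 0.13 (SE), adjusted p = 1.88e-06), MT-TY (1.67 ± 0.15 (SE), adjusted p = 1.05e-05), MT-TN (0.91 ± 0.18 (SE), adjusted p = 0.00151) and MT-TS1 (0.56 ± 0.14 (SE), adjusted p = 0.00713). A further 8 were lower in UM-UC3, 6 of them on the plus strand, led by MT-TV (-1.39 ± 0.22 (SE), adjusted p = 0.000468), MT-TI (-2.29 ± 0.37 (SE), adjusted p = 0.000471) and MT-TQ (-2.23 ± 0.40 (SE), adjusted p = 0.000952). The call for MT-TS2 was lost without 5637 at 2 or 4 mM or UM-UC3 at 1, 2 or 4 mM (0.0567 to 0.117), and that for MT-TM without UM-UC3 at 1, 2 or 4 mM (0.0577 to 0.0746). Without 5637 at 4 mM, 14 tRNAs differed, and 8 of the 37 genes were higher in UM-UC3 in place of 5. The lines did not overlap at any dose for 11 of the 37 genes, which are 2 mRNAs, 2 rRNAs and 7 tRNAs (51.1% of all tested genes did not overlap), so both counts were below those of the table as a whole.

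The nuclear genes for cutting, maturing and stabilising mitochondrial RNA were examined as a list of 25, all above the minimum. Over both lines 2 of the 25 fell and none rose, where 12.8% of all genes fell and 12.1% rose. Neither count is above its share. The median was -0.33 beside -0.01 for all genes. The 2 that fell were PRORP and ELAC2, the nucleases for the tRNA 5′ and 3′ ends. PRORP was at 8.60, 7.05, 4.15 and 0.929 FPKM at 0, 1, 2 and 4 mM in 5637 and at 3.43, 3.90, 1.21 and 1.40 FPKM in UM-UC3 (-1.74 ± 0.35 (SE), adjusted p = 0.00913 over both lines). ELAC2 was at 23.4, 17.3, 14.2 and 9.92 FPKM in 5637 and at 18.0, 14.9, 14.9 and 12.4 FPKM in UM-UC3 (-0.80 ± 0.18 (SE), adjusted p = 0.0136). Both were lowest at 4 mM in 5637. In UM-UC3 PRORP dropped between 1 and 2 mM, and ELAC2 was lowest at 4 mM. Neither passed over both lines without the 2 libraries at 4 mM (0.0716 and 0.109), and ELAC2 not without the 5637 library at 4 mM (0.0555). The further subunits of RNase P, TRMT10C at 21.2, 20.4, 17.4 and 17.4 and 12.5, 12.1, 11.8 and 16.2 FPKM and HSD17B10 at 52.2, 44.4, 46.6 and 32.5 and 20.9, 19.9, 16.5 and 18.5 FPKM, did not pass over both lines.

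**Figure D4:**
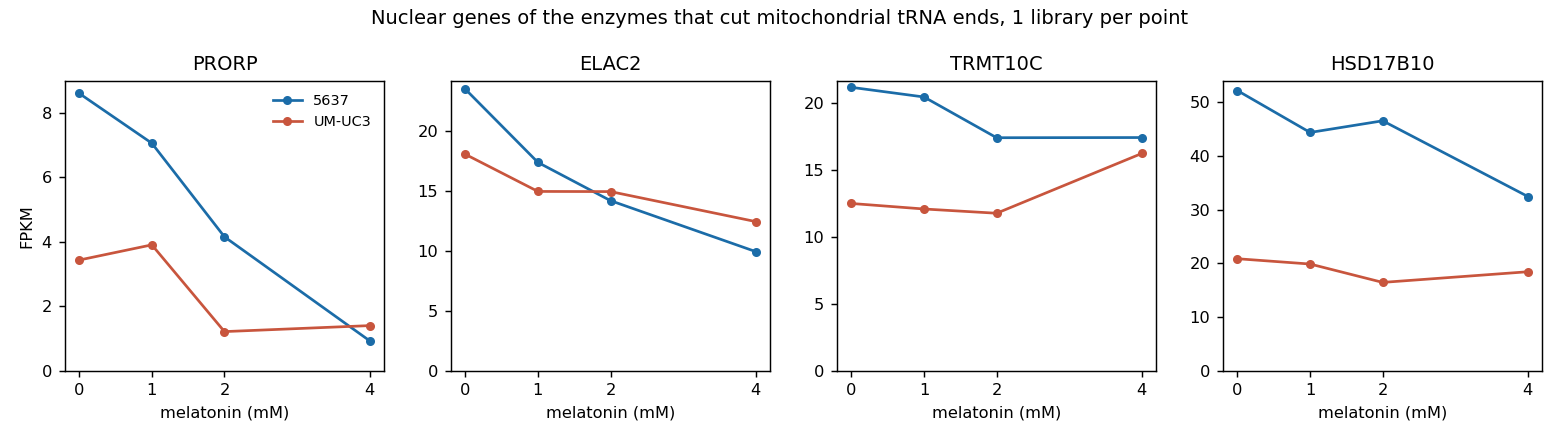
FPKM (vertical axis, from 0) of the nuclear genes for the RNase P subunits PRORP, TRMT10C and HSD17B10 and for ELAC2 against melatonin in mM, with 1 library per point for 5637 (blue) and UM-UC3 (red). PRORP and ELAC2 are lower at 4 mM than in DMSO in both lines.

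In 5637, 11 of these 25 fell and none rose (median -0.43), where 20.4% of all genes fell and 23.0% rose, with the smallest p for PNPT1, the mitochondrial polynucleotide phosphorylase that degrades RNA, at 26.2, 20.4, 14.2 and 7.16 FPKM (-1.76 ± 0.22 (SE), adjusted p = 0.000283), PRORP (-2.40 ± 0.36 (SE), adjusted p = 0.000764) and ELAC2 (-1.13 ± 0.18 (SE), adjusted p = 0.000931). The other 8 were TBRG4, REXO2, MTPAP, SLIRP, RPUSD4, FASTKD2, HSD17B10 and FASTKD3. None of the 11 passed without the 5637 library at 4 mM (0.0522 to 0.659), and 5 did not without 5637 at 0 mM. In UM-UC3, 2 of the 25 fell, where 16.7% of all genes did, and the median was 0.02. These were FASTKD5, which serves the maturation of RNAs without a tRNA at their end, at 6.65, 5.46, 3.34 and 3.09 FPKM (-0.94 ± 0.25 (SE), adjusted p = 0.0213), and PRORP (-1.07 ± 0.36 (SE), adjusted p = 0.0494). Both were lost without UM-UC3 at 0, 1 or 4 mM, and PRORP also without 5637 at 1 or 2 mM. The slopes of 7 of the 25 genes differed, where 25.7% of all genes did. The slope was higher in UM-UC3 for 6 of them (10.4% of all genes), led by PNPT1 (1.73 ± 0.31 (SE), adjusted p = 0.00479), TBRG4 (1.36 ± 0.25 (SE), adjusted p = 0.00541) and REXO2 (1.18 ± 0.23 (SE), adjusted p = 0.00713). None of the 7 passed without either 4 mM library.

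Of 10 genes for mitochondrial transcription, 2 rose and 1 fell over both lines (median 0.06), where 12.1% of all genes rose and 12.8% fell. MTERF3, a factor that binds mitochondrial DNA and restrains transcription in mice, rose (0.70 ± 0.18 (SE), adjusted p = 0.0236), with 17.2, 20.04, 20.7 and 22.8 FPKM in 5637 and 18.1, 23.0, 31.2 and 38.7 FPKM in UM-UC3. MTRES1 rose (0.82 ± 0.24 (SE), adjusted p = 0.033) and TFAM fell (-0.45 ± 0.14 (SE), adjusted p = 0.0493), at 17.3, 18.8, 16.7 and 13.4 FPKM in 5637 and 15.8, 15.3, 13.5 and 11.1 FPKM in UM-UC3. The call for TFAM was lost without any 1 of the 8 libraries (0.0518 to 0.115), and that for MTRES1 without any but UM-UC3 at 4 mM. MTERF3 was lost without UM-UC3 at 0 mM (0.0825) or 4 mM (0.0726).

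POLRMT, the polymerase itself, fell in 5637 (-1.33 ± 0.21 (SE), adjusted p = 0.000866), from 15.3 to 5.28 FPKM, and was at 13.5, 14.5, 18.0 and 15.6 FPKM in UM-UC3. Its slopes differed between the lines (1.54 ± 0.29 (SE), adjusted p = 0.00599), though not without either 4 mM library (0.114 and 0.0724). Also in 5637, MTRES1 (1.30 ± 0.23 (SE), adjusted p = 0.00145), MTERF1 (0.80 ± 0.22 (SE), adjusted p = 0.0155) and MTERF2 (0.91 ± 0.29 (SE), adjusted p = 0.0289) rose, and all 4 calls in 5637 were lost without its 4 mM library (0.101 to 1). In UM-UC3 MTERF3 alone passed (1.06 ± 0.18 (SE), adjusted p = 0.00295), and not without its 4 mM library (0.0974). Of all genes 43.3% passed in 5637 and 29.2% in UM-UC3.

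The nuclear subunits of the same respiratory complexes stood as follows. For complex IV, 6 of 12 rose in UM-UC3 (median 0.66, 12.5% of all genes rising), led by COX6B1 (1.29 ± 0.21 (SE), adjusted p = 0.0023), COX7A2 (1.34 ± 0.22 (SE), adjusted p = 0.00254) and COX7C (1.17 ± 0.23 (SE), adjusted p = 0.00485), next to the rise of MT-CO1 and MT-CO2 there, and in 5637 1 rose (COX7A2L, 0.71 ± 0.20 (SE), adjusted p = 0.0177) and 1 fell (COX7C, -0.69 ± 0.23 (SE), adjusted p = 0.0311), at a median of -0.12. For complex V, 10 of 18 fell in 5637 (median -0.58, 20.4% of all genes falling), led by ATP5MC1 (-1.48 ± 0.19 (SE), adjusted p = 0.000303), ATP5F1D (-1.55 ± 0.22 (SE), adjusted p = 0.000543) and ATP5ME (-1.18 ± 0.30 (SE), adjusted p = 0.0111), while MT-ATP6 and MT-ATP8 went up at each dose there without passing, and in UM-UC3 1 rose (ATP5MD, 0.88 ± 0.19 (SE), adjusted p = 0.00917).

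Of all tested genes, 23.0% rose and 20.4% fell in 5637, and 12.5% rose and 16.7% fell in UM-UC3. For complex I, 1 of 37 rose and 11 fell in 5637 (median -0.45), and 10 rose and 5 fell in UM-UC3 (median 0.33), NDUFA2, an accessory subunit, having the smallest p in both lines (1.44 ± 0.22 (SE), adjusted p = 0.000748 in 5637 and 2.03 ± 0.22 (SE), adjusted p = 0.000518 in UM-UC3). For complex III, 2 of 9 fell in 5637 (median -0.37), and 4 rose and 1 fell in UM-UC3 (median 0.20). CYC1, the cytochrome c1 of that complex, fell in both lines (-0.80 ± 0.20 (SE), adjusted p = 0.01 and -1.19 ± 0.20 (SE), adjusted p = 0.0028). Without the 4 mM library of the line concerned, none of these calls passed for complexes I, III and IV in either line, and 1 of the 10 did for complex V in 5637. Without the DMSO library, 6 of 12 calls for complex I, none of 2 for III, 1 of 2 for IV and 6 of 10 for V remained in 5637, and 7 of 15, 3 of 5 and 3 of 6 for complexes I, III and IV in UM-UC3.

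The nuclear genome also holds copies of mitochondrial genes, and 408 of them, by gene name, were in the table. A mean of at least 1 FPKM was reached by 5. MTATP6P1 on chromosome 1 (positions 633696 to 634376, plus strand, GRCh38) is 98.5% identical to MT-ATP6 and was at 16.0 to 27.0% of its FPKM in all 8 libraries. MTND2P28 (629640 to 630683) is 98.2% identical to MT-ND2 and was at 3.21 to 4.91% of it. No source used here says how reads that fit both places were shared out, so the values of MT-ATP6, MT-ND2, MT-CO1 and MT-CO2 carry this uncertainty. The copies on chromosome 1 stand in the same order as MT-ND2, MT-CO1, MT-CO2 and MT-ATP6. The stretches between them were not compared with the mitochondrial genome. The genes that lie between these mRNAs may therefore carry the uncertainty too. They are MT-ATP8, MT-TW, MT-TA, MT-TN, MT-TC, MT-TY, MT-TS1, MT-TD and MT-TK.

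The remaining 3 copies were far higher in UM-UC3. MTCO2P12 and MTCO2P2 reached the minimum mean only through their UM-UC3 libraries. Their higher level there follows in part from that filter, so no test between the lines is given for them. MTCO1P12 (631074 to 632616, 98.6% identical to MT-CO1) was at 3.29, 3.36, 4.55 and 4.10 FPKM at 0, 1, 2 and 4 mM in 5637 and at 44.03, 43.8, 74.2 and 77.0 FPKM in UM-UC3, a difference of 3.61 ± 0.16 (SE), adjusted p = 2.14e-07. MTCO2P12 (632757 to 633438, 97.9% identical to MT-CO2) was at 0.175, 0.104, 0.175 and 1.51 FPKM in 5637 and at 51.3, 42.1, 68.3 and 67.1 FPKM in UM-UC3. Relative to the mitochondrial gene, MTCO1P12 was at 0.0473 to 0.0585% in 5637 and 0.540 to 0.706% in UM-UC3, and MTCO2P12 at 0.00267 to 0.0438% and 1.06 to 1.69%. The difference of MTCO1P12 in FPKM passed under all 16 alternatives. MTCO2P2 on chromosome 18 was listed at 0 in 2 of the 4 libraries of 5637, at 0.104 and 0.122 FPKM in the other 2, and at 5.55 to 9.32 FPKM in UM-UC3. With dose, MTCO2P12 rose in 5637 (1.16 ± 0.32 (SE), adjusted p = 0.0154), where MT-CO2 did not pass (-0.01 ± 0.30 (SE), adjusted p = 0.974), and over both lines (0.85 ± 0.26 (SE), adjusted p = 0.0451), but in UM-UC3, where MT-CO2 rose, it did not pass (0.53 ± 0.32 (SE), adjusted p = 0.24). Its rise in 5637 was that of the 4 mM library, and without it the slope was -0.0012 (adjusted p = 1). The call over both lines was lost without 5637 at 0, 1 or 4 mM or UM-UC3 at 1 or 2 mM (0.0726 to 0.238). MTCO1P12 rose in UM-UC3 (0.90 ± 0.25 (SE), adjusted p = 0.0238), where MT-CO1 did, and the slope of MTND2P28 was lower in UM-UC3 than in 5637 (-1.47 ± 0.45 (SE), adjusted p = 0.04), as was that of MT-ND2. The call for MTCO1P12 was lost without UM-UC3 at 0, 1 or 4 mM (0.0581 to 0.21), and that for MTND2P28 without 5637 at 0, 1 or 4 mM or UM-UC3 at 0 or 4 mM (0.0582 to 0.368).

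**Figure D5:**
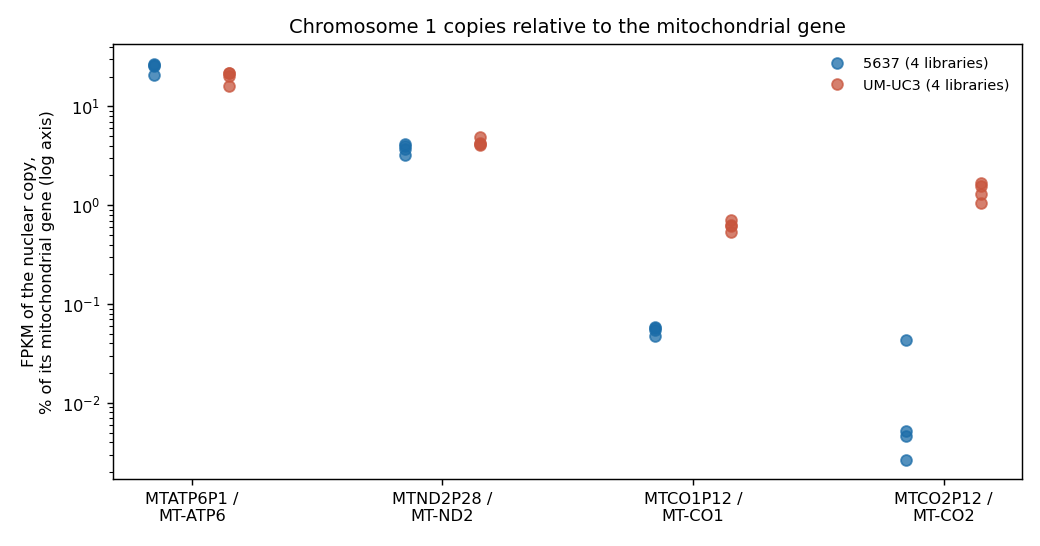
FPKM of 4 nuclear copies on chromosome 1 as a percentage of the FPKM of the matching mitochondrial gene (vertical log axis), with 1 point per library, 4 of 5637 (blue) and 4 of UM-UC3 (red). For MTATP6P1 and MTND2P28 the lines lie close together, and for MTCO1P12 and MTCO2P12 every UM-UC3 library is above every 5637 library.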

How the data were processed

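The 8 libraries were grouped by line and dose from the labels. According to the submitters' processing notes and the study's methods, poly(A) RNA was read as pairs, reads were trimmed with Trimmomatic, aligned to GRCh38 with HISAT2 and assembled with StringTie. The authors deposited 1 value per gene and library, taken here as FPKM because StringTie gives that unit and the sheet names none. Reads per library and the annotation release are not given in the sources used here.

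Values were analysed as log2(FPKM + 1) with limma 3.58.1 (moderated by trend, robust) in R 4.3.3, over the 12649 of 60612 genes with a mean of at least 1 FPKM. Fits were line plus dose (5 residual degrees of freedom) or a slope per line (4), with Benjamini-Hochberg adjustment. The dose trend over both lines was tested on simulated data, and the slopes per line and their difference were not. All mitochondrial genes are named by rule, and from each list those with the smallest p or the roles given. Alternatives changed the scaling, filter, pseudocount, moderation, dose scale and libraries. The members and lists were chosen with earlier results of these data known.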

Additional observations from a re-analysis of the deposited data

Results flagged for a closer look

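For 13 of the 37 mitochondrial genes the dose slope differed between the lines by the test of the difference itself (limma, adjusted p under 0.05), each with the lower slope in UM-UC3. Of all tested genes 25.7% passed that test, 15.3% with the lower slope in UM-UC3. In log2 change from 0 to 4 mM, UM-UC3 minus 5637, the mRNA MT-ND2 was at -1.42. The tRNAs between MT-ND4 and MT-ND5 were at -3.16 for MT-TH, -2.48 for MT-TS2 and -1.75 for MT-TL2. Those around MT-ND2 were at -2.57 for MT-TI, -2.64 for MT-TQ, -3.78 for MT-TM and -1.74 for MT-TW. Elsewhere on the genome MT-TD was at -2.50, MT-TK at -2.91, MT-TG at -2.49, MT-TE at -2.25 and MT-TT at -1.43. Of these 13, none passed without both 4 mM libraries.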

How the results depend on the processing

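Depth is unknown, so no limit from counting can be given, and with 4 libraries per line the end doses carry the slopes.

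Over both lines 1 mRNA passed in the fit reported, and 0 did without the filter, without both 4 mM libraries, without a line term, for any dose against DMSO or for 4 mM against DMSO alone. For tRNAs (4) the counts were 2 without the filter, 2 on log2 of dose + 1, 2 without both 4 mM libraries, 0 without a line term, 0 for any dose against DMSO and 1 for 4 mM alone. In 5637, 5, 5 and 3 of the tRNAs passed (9 reported) without the filter, on log2 dose and without both 4 mM libraries. Of the last 3, 1 rose and 2 fell. In UM-UC3 the mRNAs (3) numbered 1, 1 and 0 under these settings, the tRNAs (10) 6 without the filter and 5 without both 4 mM libraries, and the rRNAs (0) 1 with moderation lacking trend and robust steps. For the difference of slopes the mRNAs (1) numbered 0 with trimmed mean factors, 0 without the filter, 2 with plain moderation, 0 on log2 dose and 0 without both 4 mM libraries, and the tRNAs (12) 4 without the filter, 6 on log2 dose and 0 without both 4 mM libraries. Scaling to nuclear genes moved the median difference of slopes of all genes from -0.11 to -0.28.

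Leaving out 1 library at a time gave 0 to 4 mRNAs and 3 to 10 tRNAs over both lines, 0 to 4 mRNAs and 2 to 10 tRNAs in 5637, 0 to 4 mRNAs, 0 to 1 rRNAs and 1 to 11 tRNAs in UM-UC3, 0 to 2 mRNAs and 2 to 15 tRNAs for the difference of slopes, and 3 to 7 mRNAs, 1 to 2 rRNAs and 10 to 14 tRNAs for the level between lines. The cause of these shifts was not tested.

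Some log2 slopes changed sign. Without both 4 mM libraries these were MT-ND6 over both lines (0.42), and in 5637 SDHC (0.011), COX7C (0.0445), MTCO2P12 (-0.0012), MT-TQ (-0.075), MT-TW (-0.72), MT-TA (-0.60) and MT-TN (-0.44). In UM-UC3 they were UQCRH (-0.0877) and MT-TR (-0.55), and for the difference of slopes NDUFS5 (-0.0742), ATP5ME (-0.24), MT-TL1 (0.15) and MT-TA (0.24). Leaving out 1 library at a time, the slopes in 5637 ran from -0.995 to 0.011 for SDHC, -1.04 to 0.0445 for COX7C, -0.0012 to 1.67 for MTCO2P12, -0.075 to 1.58 for MT-TQ, -0.72 to 1.35 for MT-TW, -0.60 to 2.00 for MT-TA and -0.44 to 1.33 for MT-TN. In UM-UC3 they ran from -0.0877 to 1.08 for UQCRH and -0.55 to 2.86 for MT-TR, and the difference of slopes from -1.83 to 0.0205 for MT-TF and -2.22 to 0.38 for MT-TA. The log2 ratio of MT-ATP6 within the mRNA pool of 5637 was 0.0632, and -0.00978 when the most abundant mRNA was left out of the pool.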
